A study of Rattus norvegicus with 8 samples.

Results

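The liver takes up bile acids, bilirubin, hormones and many drugs from portal blood through carrier proteins on the sinusoidal face of the hepatocyte. The 7 rat genes described here encode such carriers: Slco1b2, Slco1a1, Slco1a4 and Slco2b1 of the organic anion transporting polypeptide (OATP) family, the sodium-coupled bile acid carrier Slc10a1, and the organic anion transporters Slc22a7 and Slc22a8. They were taken by gene symbol from a count table of 30562 annotated genes, and each of the 7 symbols matched 1 row. All 7 also passed the filter on low counts that left 16591 genes for testing.

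As background, OATP carriers move large amphipathic anions without sodium, whereas Slc10a1 uses the sodium gradient to bring conjugated bile salts back into the hepatocyte during each enterohepatic cycle. Statins such as atorvastatin, an inhibitor of cholesterol synthesis, have to enter the hepatocyte to act, and the rodent carrier Slco1b2 is the counterpart of the human liver carriers that take statins up. Transcription of these genes in liver is known to depend on hepatocyte nuclear factors, on growth hormone acting through STAT5 and on nuclear receptors that sense foreign compounds and bile acids.

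RNA was sequenced from liver of Wistar rats labelled male, with a starting weight of 160 g, in 4 groups of 2 libraries, and each library came from a separate animal out of 5 treated per group. The AT + HCB group received atorvastatin and hexachlorobenzene, the HCB group hexachlorobenzene alone, the AT group atorvastatin alone and the Control group vehicle. The gavage dose of hexachlorobenzene (HCB), a persistent chlorinated fungicide known for causing porphyria in people and rats, was 100 mg/kg on 3 days of each week over 30 days. Atorvastatin (AT) was dissolved in the drinking water, with a dose of 5 mg/kg per day by the labels, although their recipe of 5 mg per rat per day comes to 31.25 mg/kg at the starting weight. All animals were killed on day 37. Between 29376942 and 51982004 reads per library were assigned to genes, and among the carriers Slco1a4 had 81 reads in the first AT library. The 2 animals per group limit the precision of the values, and the part of read depth in this was not tested. Levels are given as CPM, the gene's share of a library's assigned reads in the usual per-megaread unit, scaled between libraries by the trimmed mean of M values, and levels of different genes are compared only as CPM per kilobase of exon.

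Before the carriers are described, the 4 libraries labelled AT + HCB or HCB have to be set against the 4 labelled AT or Control, since they differed in more than the HCB label. Summed over 6 Y-linked genes, the HCB-labelled libraries held 136 to 218 CPM and the libraries without the HCB label 1.99 to 4.04 CPM, although every rat was labelled male. Summed over 8 fetal liver genes, the levels were 197 to 378 CPM in the HCB-labelled libraries and 37900 to 51800 CPM in the others, and Afp alone had 70.1 to 145 CPM against 11400 to 29700 CPM. The 7 neutrophil genes summed to 0.401 to 3.17 CPM in the HCB-labelled libraries and 129 to 218 CPM in the others, and the 8 erythroid genes to 27.6 to 138 CPM against 160 to 511 CPM. The sum of the 14 hepatocyte secreted protein genes overlapped, at 159000 to 244000 CPM against 117000 to 225000 CPM. That sum was high in every library, as was Alb alone at 45700 to 125000 CPM. Other genes of the list did separate by label. Apoa2 had 314 to 487 CPM against 16.5 to 28.5 CPM, and Apoa1 348 to 777 CPM against 2060 to 3080 CPM. Serpina1 was low throughout, at 8.05 to 10.6 CPM against 1.05 to 1.92 CPM. Reads outside exons made up 7.46% to 11.43% of the HCB-labelled libraries and 15.26% to 34.04% of the others. Each difference by HCB label reported for a carrier therefore cannot be told apart from what else separated these libraries, Y-linked and fetal liver genes included, and in bulk tissue fewer cells of a type and less RNA per cell cannot be told apart either.

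By HCB label, the 4 OATP genes rose 3.75 to 40.3-fold in HCB over Control livers, Slc22a7 rose 1.80-fold, and Slc10a1 and Slc22a8 did not pass the test. Of the 7 carriers, 5 were called higher in HCB over Control livers and 6 in AT + HCB over AT livers, at an adjusted p under 0.05 in edgeR's quasi-likelihood test with Benjamini-Hochberg adjustment over all 16591 genes, and none was called lower. For comparison, 26.9% of all tested genes were called in either direction and 13% were called higher in the first comparison, against 27.6% and 12.6% in the second. The median log2 difference of the 7 carriers was 1.91 in HCB over Control livers, where the median of all tested genes was -0.09. In AT + HCB over AT livers the carriers' median was 2.01 and that of all genes -0.11. With the 2 HCB contrasts averaged, 6 carriers were called higher, where 46.6% of all genes were called and 21.3% were called higher. The averaged contrast uses the same libraries as the separate ones and adds no independent evidence. When libraries were scaled to the 14 hepatocyte secreted protein genes instead, the median of all genes moved to -0.66 and -0.88 in the 2 separate comparisons. This list weighs its genes equally and is not an unchanged reference. In the averaged HCB contrast 5 of its genes were called higher and 2 lower, with Apoa2 at 4.08, Serpina1 at 2.55 and Apoa1 at -2.41. How far these genes drove the shift was not tested. Of all tested genes, 4.1% and 3.44% were then called higher. Among the called genes alone, 19.4% and 12% were higher, against 48.5% and 45.6% before. The carriers' medians were 1.37 and 1.3 under that scaling, and the 4 OATP genes were still called higher with smaller differences: Slco1a1 had 2.00 and 1.73, Slco1a4 4.77 and 4.20, Slco1b2 2.14 and 1.52, and Slco2b1 1.37 and 1.3. There Slc22a7 (0.31 and 0.33) and Slc22a8 (-0.19 and 0.08) were not called (edgeR adjusted p = 0.643, 0.571, 0.782 and 0.894). For atorvastatin, 0 of the 7 carriers were called in either comparison or in their average.

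**Figure D1:**
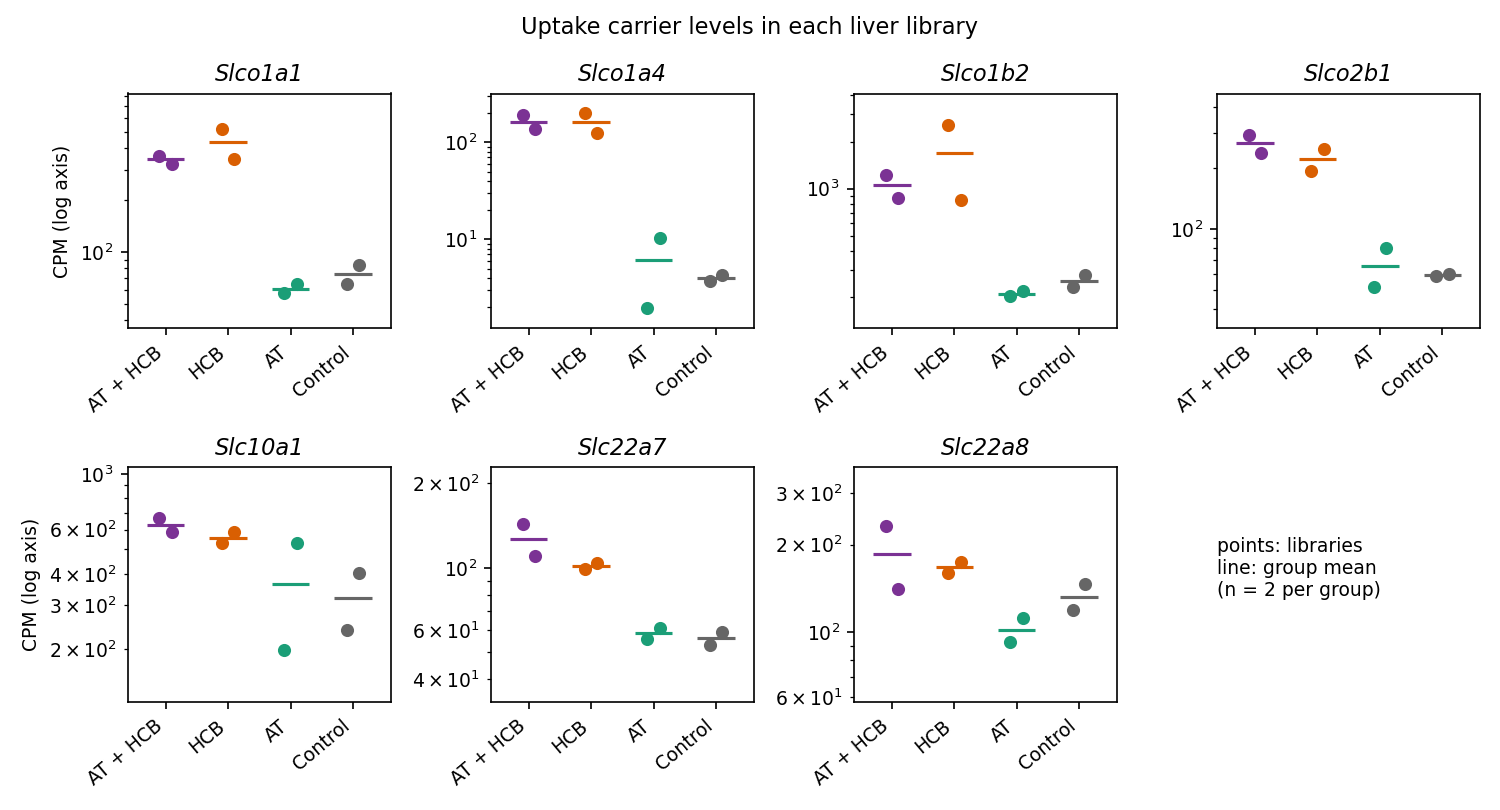
Level of each carrier in each liver library in CPM on a log axis, with a separate axis range per gene, in AT + HCB, HCB, AT and Control livers; points are libraries and lines the mean of the 2 libraries of a group. The 4 OATP genes sit well above in the HCB-labelled groups (Slco1a4 at 124 to 200 CPM against 1.94 to 10.4 CPM), while Slc22a8 at 141 to 231 CPM against 92.3 to 146 CPM overlaps.

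Slco1b2, also named Oatp1b2, carries bile acids, bilirubin conjugates and statins into rodent hepatocytes. Its gene (ENSRNOG00000030538) lies on the plus strand of chromosome 4 from 174551480 to 174619981 in mRatBN7.2, with 15 merged exons of 3211 bases. It had 1230 and 868 CPM in AT + HCB livers, 2550 and 846 CPM in HCB livers, 203 and 220 CPM in AT livers, and 233 and 277 CPM in Control livers. All 4 HCB-labelled libraries lay above all 4 others, and how many of all tested genes separated as fully was not computed, here or for the carriers below. Within the HCB group the first library was 3.01 times the second. The mean was 1700 ± 1210 CPM in HCB livers and 255 ± 31.3 CPM in Control livers (SD, n = 2 each), a log2 difference of 2.74 ± 0.48 (SE; edgeR adjusted p = 0.00224). Without the first HCB library this fell to 1.75 (edgeR adjusted p = 0.0115). Multimapping reads made up 19.36% of that library and 12.22% of the second HCB library, and 21.0% and 20.33% of the first AT and Control libraries, which had the lower Slco1b2 level of their groups; the part of this in the result was not tested. In AT + HCB over AT livers the log2 difference was 2.31 ± 0.47 (edgeR adjusted p = 0.00516), and with the AT and Control libraries that had the most reads outside exons left out it was 2.25 and no longer called (edgeR adjusted p = 0.0566).

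Slco1a1, or Oatp1a1, is a broad carrier of bile acids, steroid sulfates and thyroid hormones that is known in mouse liver to be higher in males. The gene (ENSRNOG00000036984) spans 174876593 to 174950873 on the minus strand of chromosome 4, with 17 merged exons of 3263 bases. Slco1a1 had 362 and 326 CPM in AT + HCB livers, 520 and 348 CPM in HCB livers, 57.5 and 64.6 CPM in AT livers, and 65.2 and 84.0 CPM in Control livers. The lowest HCB-labelled library was well above the highest of the others. The log2 difference was 2.54 ± 0.30 in HCB over Control livers (edgeR adjusted p = 0.000205) and 2.49 ± 0.30 in AT + HCB over AT livers (edgeR adjusted p = 0.000229). These correspond to folds of 5.82 (95% interval 3.68 to 9.20) and 5.64 (3.57 to 8.90). The gene was called in all 19 alternatives tried in each of these comparisons.

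Slco1a4, or Oatp1a4, carries digoxin and bile acids and is known in rat liver to be induced by ligands of the pregnane X receptor. In the annotation used by the authors its gene (ENSRNOG00000047493) spans 174710004 to 175254573 on the minus strand of chromosome 4, a span of 544.6 kb with 36 merged exons that encloses Slco1a1, Slco1a3 and Slco1a6. Its exons overlap those of no other gene, but paralogues in the span may share reads with it, and the gene model may join more than 1 gene. Its level per kilobase is therefore uncertain. The levels and differences below are those of the model as counted, which need not be those of 1 gene. Slco1a4 had 192 and 137 CPM in AT + HCB livers, 200 and 124 CPM in HCB livers, 1.94 and 10.4 CPM in AT livers, and 3.76 and 4.29 CPM in Control livers. Its difference by HCB label was the largest of the 7 carriers, and the lowest HCB-labelled library stood far above the highest of the rest. The log2 difference was 5.33 ± 0.71 in HCB over Control livers (edgeR adjusted p = 0.000932), a fold of 40.3 with a 95% interval of 13.1 to 123. In AT + HCB over AT livers it was 4.73 ± 0.69 (edgeR adjusted p = 0.00153), a fold of 26.6 (8.99 to 78.6). The AT libraries differed by 5.35-fold, and the log2 difference was 3.99 without the first AT library and 6.41 without the second (edgeR adjusted p = 6.06e-05 and 3.31e-06). Averaged over both contrasts it was 5.03 ± 0.50, and 5.87 without the second AT library.

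Slco2b1, or Oatp2b1, carries steroid sulfates and statins and, unlike the other OATP genes here, lies on chromosome 1 (ENSRNOG00000017976, 153959293 to 154007353, minus strand, 16 merged exons). It had 293 and 237 CPM in AT + HCB livers, 194 and 250 CPM in HCB livers, 51.4 and 80.0 CPM in AT livers, and 58.6 and 59.7 CPM in Control livers. The groups with and without the HCB label did not overlap. Its log2 difference was 1.91 ± 0.29 in HCB over Control livers (edgeR adjusted p = 0.000938) and 2.01 ± 0.29 in AT + HCB over AT livers (edgeR adjusted p = 0.000722), or folds of 3.75 and 4.04.

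Slc10a1, or Ntcp, is the main sodium-dependent carrier of conjugated bile acids (ENSRNOG00000005794, chromosome 6, 100613045 to 100626670, minus strand, 5 merged exons of 1664 bases). It had 665 and 587 CPM in AT + HCB livers, 530 and 584 CPM in HCB livers, 198 and 528 CPM in AT livers, and 238 and 401 CPM in Control livers. After scaling, the highest library without the HCB label, the second AT library, lay just under the lowest HCB-labelled one. This order rests on the scaling between libraries. Before it, the second AT library, at 25416 of 43.8 M assigned reads, lay above every HCB-labelled library, among them the second HCB library at 21883 of 42.1 M. The spread came from the groups without HCB, where the second library was 2.67 times the first in AT livers and 1.68 times in Control livers. The first AT and Control libraries were also those with the most reads outside exons, at 34.04% and 27.69%, and with less Alb, at 45700 and 57200 CPM, against 93500 and 101000 CPM in the second ones; the part of this in the result was not tested. The log2 difference was 0.80 ± 0.43 in HCB over Control livers (95% interval -0.15 to 1.75, edgeR adjusted p = 0.193) and 0.79 ± 0.43 in AT + HCB over AT livers (-0.16 to 1.74, edgeR adjusted p = 0.194), so neither passed. Averaged over both contrasts it was 0.79 ± 0.31 (0.12 to 1.47, edgeR adjusted p = 0.0522). Over the alternatives tried, that average ranged from 0.25 to 1.24. Under hepatocyte list scaling the AT + HCB over AT difference was only 0.18 (edgeR adjusted p = 0.722). With all libraries, Slc10a1 was called in the average by DESeq2 (0.81, DESeq2 adjusted p = 0.0134) and without the filter on low counts (0.79, edgeR adjusted p = 0.00382). It was also called there without the second AT library (1.24, edgeR adjusted p = 0.00216) or without the second Control library (1.04, edgeR adjusted p = 0.0348). In AT + HCB over AT livers alone it was called without the second AT library (1.68, edgeR adjusted p = 0.0127).

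Slc22a7, or Oat2, exchanges organic anions and is strongly expressed in liver (ENSRNOG00000018420, chromosome 9, 14547849 to 14553921, plus strand, 10 merged exons). It had 143 and 110 CPM in AT + HCB livers, 98.7 and 104 CPM in HCB livers, 55.9 and 61.2 CPM in AT livers, and 53.3 and 59.0 CPM in Control livers. The groups with and without the HCB label did not overlap. The log2 difference was 0.85 ± 0.23 in HCB over Control livers (edgeR adjusted p = 0.0192) and 1.11 ± 0.23 in AT + HCB over AT livers (edgeR adjusted p = 0.00537), folds of 1.80 and 2.16. The first call was lost without the first Control library (edgeR adjusted p = 0.141) or the second (0.0607), and the second was lost without the first AT + HCB library (0.0677).

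Slc22a8, or Oat3, exchanges organic anions for dicarboxylates and is known mainly from the kidney tubule and the choroid plexus (ENSRNOG00000018086, chromosome 1, 205498084 to 205517450, plus strand, 10 merged exons). It had 231 and 141 CPM in AT + HCB livers, 160 and 174 CPM in HCB livers, 92.3 and 112 CPM in AT livers, and 119 and 146 CPM in Control livers. The second AT + HCB library lay below the second Control library, so the ranges with and without the HCB label overlapped. The log2 difference was 0.34 ± 0.29 in HCB over Control livers (95% interval -0.29 to 0.96, edgeR adjusted p = 0.409), and Slc22a8 was called only in AT + HCB over AT livers (0.86 ± 0.29, edgeR adjusted p = 0.0451) and in the average (0.60 ± 0.20, edgeR adjusted p = 0.031). The difference between those contrasts was not itself called (log2 interaction 0.53 ± 0.40, edgeR adjusted p = 1). The AT + HCB over AT call was lost without the first AT + HCB library (0.50, edgeR adjusted p = 0.373), without either AT library (0.207 and 0.065) and without either Control library (0.0581 and 0.0522). The averaged call was lost without the first AT + HCB library (0.154), the second HCB library (0.0628), the first AT library (0.0891) or the first Control library (0.113). The 7 kidney tubule genes summed to 35.9 and 37.4 CPM in AT + HCB livers, 55.0 and 7.08 CPM in HCB livers, 36.6 and 28.4 CPM in AT livers, and 42.6 and 20.3 CPM in Control livers. Choroid plexus and brain endothelial genes summed to 167 to 257 CPM in the HCB-labelled libraries and 241 to 356 CPM in the others, with Otx2 at 0 in every library; the part of these genes in the result was not tested.

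**Figure D2:**
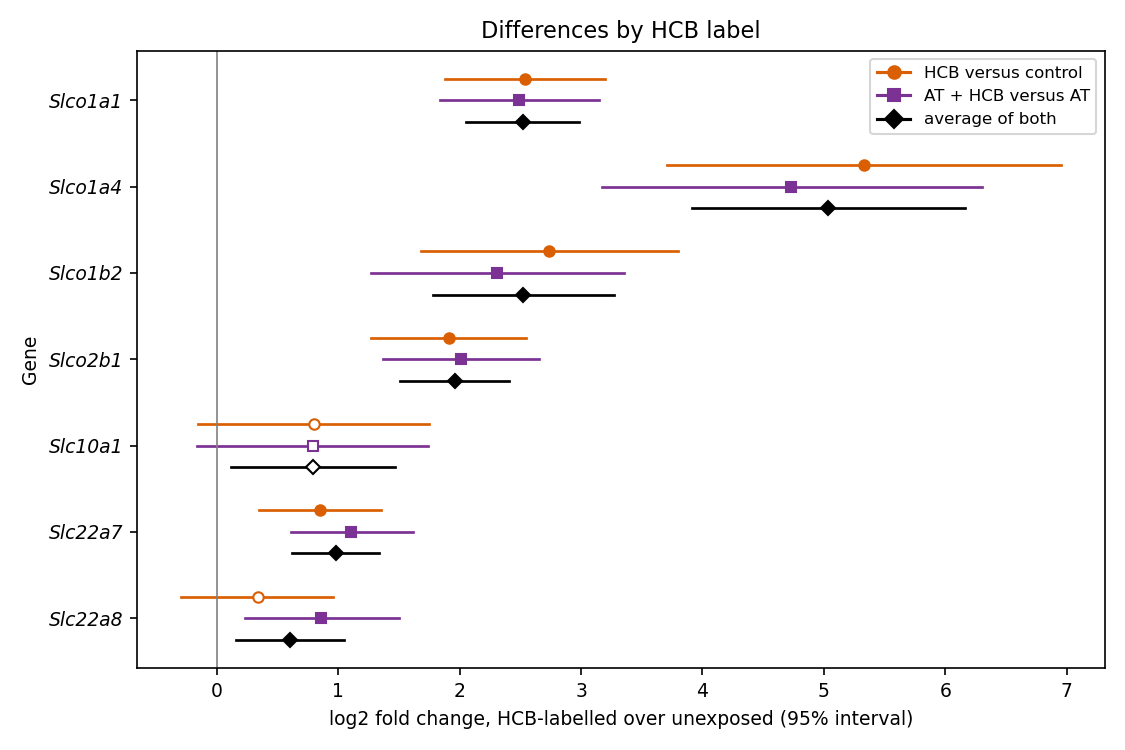
Log2 fold change of each carrier by HCB label, with 95% intervals on the x axis and genes down the page, for HCB versus Control (circles), AT + HCB versus AT (squares) and their average (diamonds); filled symbols passed an adjusted p under 0.05. All intervals of the 4 OATP genes lie above 0, with Slco1a4 at 5.33 and 4.73, while those of Slc10a1 reach from -0.15 to 1.75 and from -0.16 to 1.74.

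The changes differed enough between carriers to alter their shares within a library, and these shares do not depend on scaling between libraries. The sum over the 7 carriers does depend on that scaling. It came to 893 to 1440 CPM per kilobase in the HCB-labelled libraries and 265 to 486 CPM per kilobase in the others. Slc10a1 held 35.5% and 39.5% of that sum in AT + HCB livers, 22.1% and 39.1% in HCB livers, 44.8% and 65.2% in AT livers, and 46.5% and 55.3% in Control livers. It was thus the most abundant carrier in 7 of the 8 libraries, the exception being the first HCB library, where Slco1b2 held 55.2%. Slco1b2 held 34.1% and 30.3% in AT + HCB livers and 29.4% in the second HCB library, against 23.9% and 14.1% in AT livers and 23.5% and 19.8% in Control livers. Slco1a4 made up 2.02% to 2.49% in the HCB-labelled libraries and 0.107% to 0.312% in the others.

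**Figure D3:**
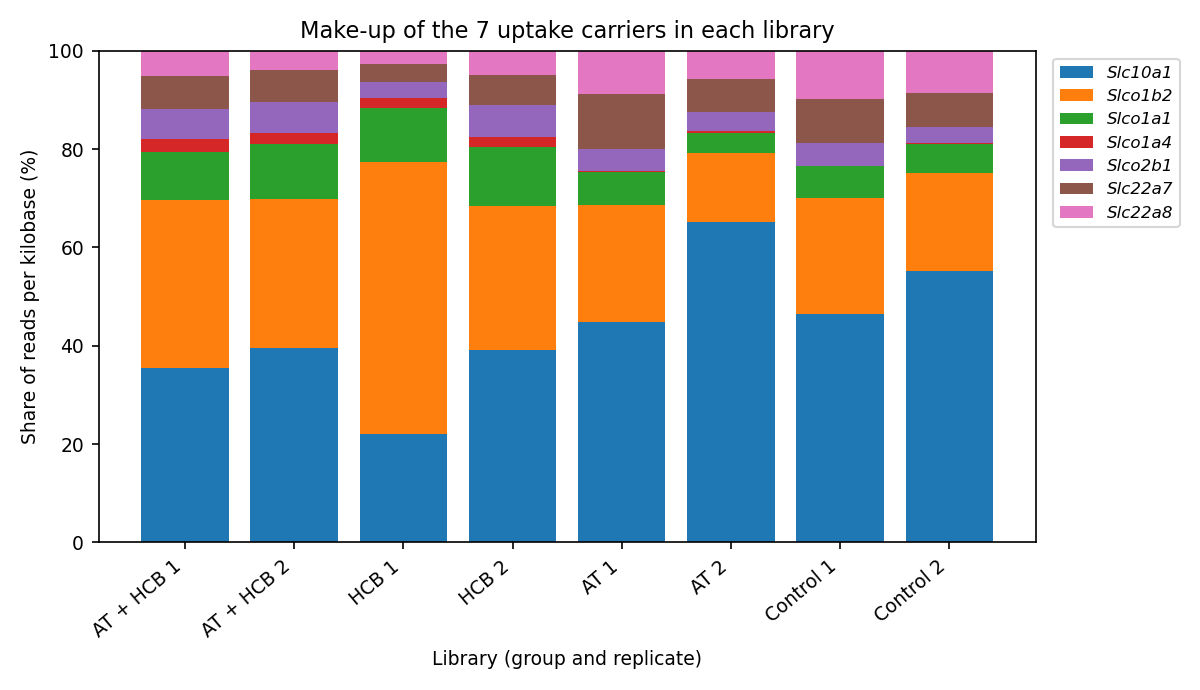
Share of each carrier, in percent, in the summed reads per kilobase of the 7 carriers, stacked for each library, with AT + HCB and HCB libraries left of AT and Control libraries. Slc10a1 is the lowest segment at 22.1% to 39.5% in HCB-labelled libraries and 44.8% to 65.2% in the others.

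Set against Slc10a1 of the same library and per kilobase, Slco1b2 stood at 0.750 to 2.49 in the HCB-labelled libraries and 0.216 to 0.533 in the others. The ratio for Slco1a1 was 0.278 to 0.501 against 0.0624 to 0.148, that for Slco1a4 0.0515 to 0.0919 against 0.00239 to 0.00478, and that for Slco2b1 0.145 to 0.174 against 0.0588 to 0.103. None of these 4 ratios overlapped between HCB-labelled and other libraries. How many of all tested genes separate these libraries as fully was not computed, so the separation cannot be called particular to the carriers. An exact two-sided permutation test over 4 and 4 libraries gave p = 0.0286 for each of the 4 ratios, the smallest value that design allows, or 0.0429 after Benjamini-Hochberg adjustment over the 6 ratios. The mean log2 ratio to Slc10a1 was higher in the HCB-labelled libraries by 1.61 for Slco1a1, 4.34 for Slco1a4, 1.51 for Slco1b2 and 1.07 for Slco2b1. For the organic anion transporters the ratios overlapped, at 0.155 to 0.187 against 0.101 to 0.247 for Slc22a7 (log2 difference 0.08, exact permutation p = 0.8) and 0.101 to 0.146 against 0.0892 to 0.210 for Slc22a8 (-0.31, exact permutation p = 0.314). The OATP genes thus differed by HCB label by more than Slc10a1 did, and for Slc22a7 and Slc22a8 no such difference was detected.

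Among all tested genes, the mean level per kilobase placed Slc10a1 at percentile 99.1, Slco1b2 at 99, Slco1a1 at 96.4, Slc22a7 at 94.5, Slc22a8 at 93.3, Slco2b1 at 93.2 and Slco1a4 at 81.1. Neighbours in the order of levels within a group are described as overlapping where their mean ± SD ranges did (n = 2 each). This is no test that their levels were equal, and it does not use that the genes were measured in the same libraries. Per kilobase in AT + HCB livers, Slc10a1 at 376 ± 33.1 CPM overlapped Slco1b2 at 327 ± 79.7, followed by Slco1a1 at 105 ± 7.68. Slc22a7 at 66.2 ± 11.9, Slco2b1 at 63.0 ± 9.47 and Slc22a8 at 47.0 ± 16.2 overlapped in turn, and Slco1a4 came last at 24.0 ± 5.61. In HCB livers Slco1b2 at 529 ± 375 CPM per kilobase overlapped Slc10a1 at 335 ± 23.1, followed by Slco1a1 at 133 ± 37.5. Slc22a7 at 53.0 ± 1.89, Slco2b1 at 52.7 ± 9.33 and Slc22a8 at 42.3 ± 2.60 again overlapped in turn, above Slco1a4 at 23.7 ± 7.91. In AT livers Slc10a1 had 218 ± 140 CPM per kilobase and Slco1b2 65.9 ± 3.72, Slc22a7 at 30.7 ± 1.98 overlapped Slc22a8 at 25.8 ± 3.50, and Slco1a1 at 18.7 ± 1.54 overlapped Slco2b1 at 15.6 ± 4.79, with Slco1a4 at 0.900 ± 0.872. In Control livers Slc10a1 had 192 ± 69.2 CPM per kilobase and Slco1b2 79.4 ± 9.73, Slc22a8 at 33.5 ± 4.91 overlapped Slc22a7 at 29.4 ± 2.12, and Slco1a1 at 22.9 ± 4.09, Slco2b1 at 14 ± 0.189 and Slco1a4 at 0.588 ± 0.0546 followed. Slco1a1 thus stood above both organic anion transporters in the groups with the HCB label and below them in the groups without it.

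The OATP genes Slco1b2, Slco1a4 and Slco1a1 lie next to each other on chromosome 4, and the genes on either side were read as a measure of how far the difference by HCB label extended. Upstream, Pde3a, a cyclic nucleotide phosphodiesterase, fell in the averaged contrast by 1.23 ± 0.17 in log2 units (edgeR adjusted p = 0.000181). The brain thyroxine carrier Slco1c1, between Pde3a and Slco1b2, had at most 0.381 CPM and a log2 difference of -0.45 ± 0.66 (edgeR adjusted p = 0.594). Within the cluster, Slco1a3 and Slco1a6 had only 16 and 8 reads over all 8 libraries. On the other side, Pyroxd1 had 0.52 ± 0.20 (edgeR adjusted p = 0.0488), Recql had 0.46 ± 0.19 (0.0653), Golt1b -0.42 ± 0.20 (0.106) and the liver glycogen synthase Gys2 0.18 ± 0.18 (0.419). Ldhb, the lactate dehydrogenase subunit next to Gys2, fell by 1.57 ± 0.22 (edgeR adjusted p = 0.000211). The 3 expressed carriers of the cluster, with averaged differences of 2.52 ± 0.34, 5.03 ± 0.50 and 2.52 ± 0.21, stood beside 7 tested neighbours between -1.57 and 0.52. Under hepatocyte list scaling the carriers had 1.83, 4.49 and 1.86 and the neighbours lay between -2.22 and -0.14, with Pyroxd1 at -0.14, Gys2 at -0.43 and Golt1b called lower at -1.07 (edgeR adjusted p = 0.0113).

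**Figure D4:**
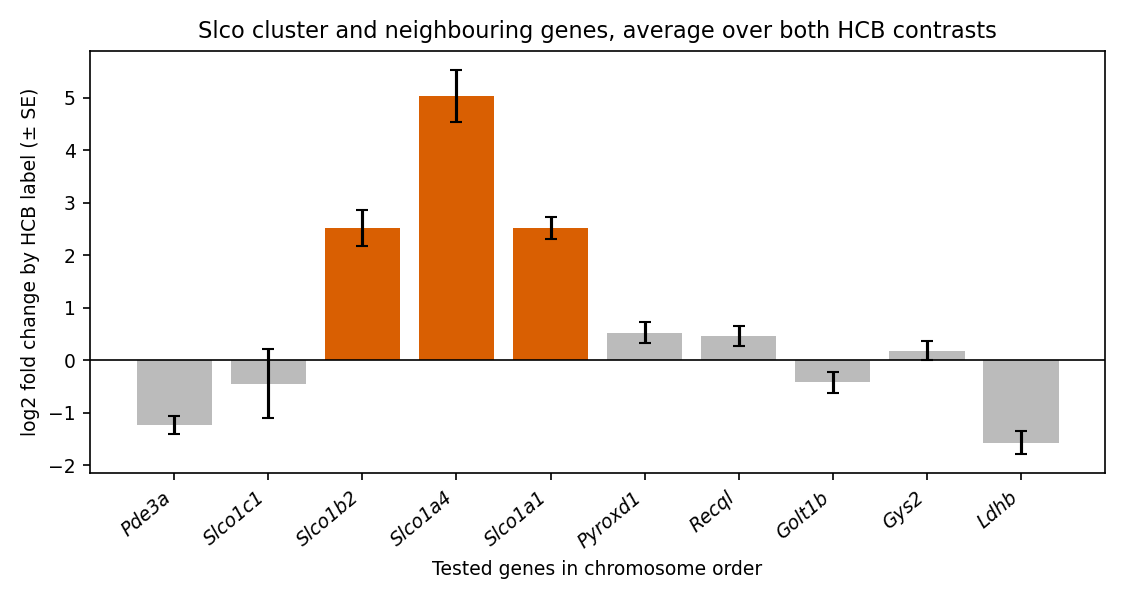
Averaged log2 fold change by HCB label, with standard error, for the tested genes of the Slco cluster on chromosome 4 and its neighbours in chromosome order. The cluster's carriers Slco1b2, Slco1a4 and Slco1a1 (coloured) stand at 2.52, 5.03 and 2.52, and the neighbours (grey) between -1.57 and 0.52; under hepatocyte list scaling the neighbours lie between -2.22 and -0.14.

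Promoter sequences are shown for the 3 cluster genes that rose together, for Slco2b1, the OATP gene outside the cluster that rose as well, and for the bile acid carrier Slc10a1, which did not pass the test, so that their upstream letters can be compared. They are from RefSeq on GRCr8, a later build than that of the counts, run 5′ to 3′ on the gene's own strand from 250 bases before to 50 bases after the annotated start, and carry the letters TTCNNNGAA, the palindrome bound by STAT5, in capitals. Slco1a1 lies at chr4:176681943-176682242 and Slco1a4 at chr4:176495797-176496096, both on the minus strand, and Slco1b2 at chr4:176282334-176282633 on the plus strand. The Slco1a4 window thus lies between those of Slco1b2 and Slco1a1. The minus-strand Slco1a4 model used for the counts starts at 175254573 in mRatBN7.2, beyond Slco1a1. The annotations place its start differently, so the Slco1a4 sequence shown is not that at the start of the counted model. Slco2b1 lies at chr1:163408016-163408315 and Slc10a1 at chr6:106357895-106358194, both on the minus strand.
Slco1a1: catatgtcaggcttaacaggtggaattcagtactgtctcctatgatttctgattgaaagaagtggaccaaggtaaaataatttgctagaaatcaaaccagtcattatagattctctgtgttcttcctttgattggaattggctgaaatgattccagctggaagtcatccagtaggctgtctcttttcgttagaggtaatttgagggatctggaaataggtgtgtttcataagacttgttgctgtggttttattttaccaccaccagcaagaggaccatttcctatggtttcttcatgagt
Slco1a4: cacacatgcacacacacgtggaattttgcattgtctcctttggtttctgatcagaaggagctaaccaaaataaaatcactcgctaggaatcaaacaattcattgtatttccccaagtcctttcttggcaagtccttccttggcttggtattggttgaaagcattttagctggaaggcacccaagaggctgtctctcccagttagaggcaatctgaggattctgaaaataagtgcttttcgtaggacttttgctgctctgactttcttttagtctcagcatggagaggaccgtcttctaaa
Slco1b2: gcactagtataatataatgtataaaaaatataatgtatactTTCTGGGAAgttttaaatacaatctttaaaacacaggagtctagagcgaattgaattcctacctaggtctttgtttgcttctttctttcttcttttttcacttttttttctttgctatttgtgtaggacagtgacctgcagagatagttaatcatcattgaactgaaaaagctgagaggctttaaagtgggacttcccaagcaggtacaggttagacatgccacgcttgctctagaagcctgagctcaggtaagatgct
Slco2b1: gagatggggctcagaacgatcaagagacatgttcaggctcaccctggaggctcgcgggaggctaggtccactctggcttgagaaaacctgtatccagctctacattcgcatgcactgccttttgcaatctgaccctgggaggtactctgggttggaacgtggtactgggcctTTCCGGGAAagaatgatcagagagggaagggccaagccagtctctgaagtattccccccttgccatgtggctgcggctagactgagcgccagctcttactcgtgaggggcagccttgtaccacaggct
Slc10a1: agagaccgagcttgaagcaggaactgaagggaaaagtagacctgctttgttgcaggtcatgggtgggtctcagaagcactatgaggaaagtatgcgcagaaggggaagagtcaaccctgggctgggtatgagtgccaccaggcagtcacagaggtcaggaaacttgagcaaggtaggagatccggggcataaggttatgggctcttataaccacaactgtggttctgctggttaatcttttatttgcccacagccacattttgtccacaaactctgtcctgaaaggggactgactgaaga

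In a global alignment the promoters of the paralogues Slco1a1 and Slco1a4 were identical in 207 of 317 columns (65.3%), and the other pairs of the 7 carriers reached at most 49.1%. The STAT5 palindrome TTCNNNGAA, which no other searched motif overlapped, was found in Slco1b2 at position -209 and in Slco2b1 at -78 relative to the annotated start, and in 8.87% of 33469 promoters of the same length. The core GCGTG (reverse CACGC) of the aryl hydrocarbon receptor's response element was found only in Slco1b2, on the minus strand at position 12, and in 29.7% of all promoters. The FOXA letters TGTTTAC (3.78% of promoters), the HNF4 letters CAAAGTCCA (0.391%) and the antioxidant response core TGACNNNGC (12.1%) were in 0 of the 7 windows on either strand. These matches describe letters in a window of 300 bases and say nothing of binding.

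For atorvastatin the carriers gave values around 0. Slco1b2, the statin carrier, averaged 1050 ± 256 CPM in AT + HCB livers and 1700 ± 1210 CPM in HCB livers, a log2 difference of -0.69 ± 0.45 (95% interval -1.69 to 0.30, edgeR adjusted p = 0.892). In AT over Control livers, at 211 ± 12.0 and 255 ± 31.3 CPM (SD, n = 2 each), the difference was -0.27 ± 0.45 (-1.26 to 0.73, edgeR adjusted p = 1). The AT + HCB over HCB value depended on which HCB library was kept, and was 0.32 without the first and -1.28 without the second. Averaged over both contrasts Slco1b2 had a fold of 0.716 with a 95% interval of 0.439 to 1.17, so a decrease to less than 0.439 of the level lay outside the interval, and changes within it were not resolved with 2 animals per group.

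The other carriers had averaged log2 differences by atorvastatin between -0.31 and 0.32. Slco1a1 had -0.31 ± 0.20 (95% interval -0.75 to 0.13), Slco2b1 0.20 ± 0.20 (-0.23 to 0.64) and Slc22a7 0.19 ± 0.16 (-0.16 to 0.54). Slc10a1 had 0.17 ± 0.30 (-0.49 to 0.84), Slc22a8 -0.11 ± 0.20 (-0.55 to 0.33) and Slco1a4, with the widest interval, 0.32 ± 0.43 (-0.64 to 1.28), which turned to -0.52 without the second AT library. Their edgeR adjusted p ranged from 0.99 to 0.994, and the smallest unadjusted p of any carrier in the average was 0.149. Of all 16591 tested genes, 0% were called in either atorvastatin comparison or their average, with 181 genes at an unadjusted p under 0.05 in AT over Control livers, 857 in AT + HCB over HCB livers and 601 in the average. DESeq2 called 3, 47 and 12 genes in these comparisons, none of them a carrier. The interaction of the treatments ranged over the carriers from -0.60 to 0.53 on the log2 scale, and 0 carriers and 0 genes were called by edgeR (391 genes at an unadjusted p under 0.05; DESeq2 called 5). These values rested on single libraries: that of Slco1a4, -0.60, was -1.35 without the first AT library and 1.08 without the second, that of Slco1b2, -0.43, was 0.59 without the first HCB library, and that of Slc10a1, -0.01, was 0.87 without the second AT library. A missed threshold in this design does not show that atorvastatin left the carriers unchanged.

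**Figure D5:**
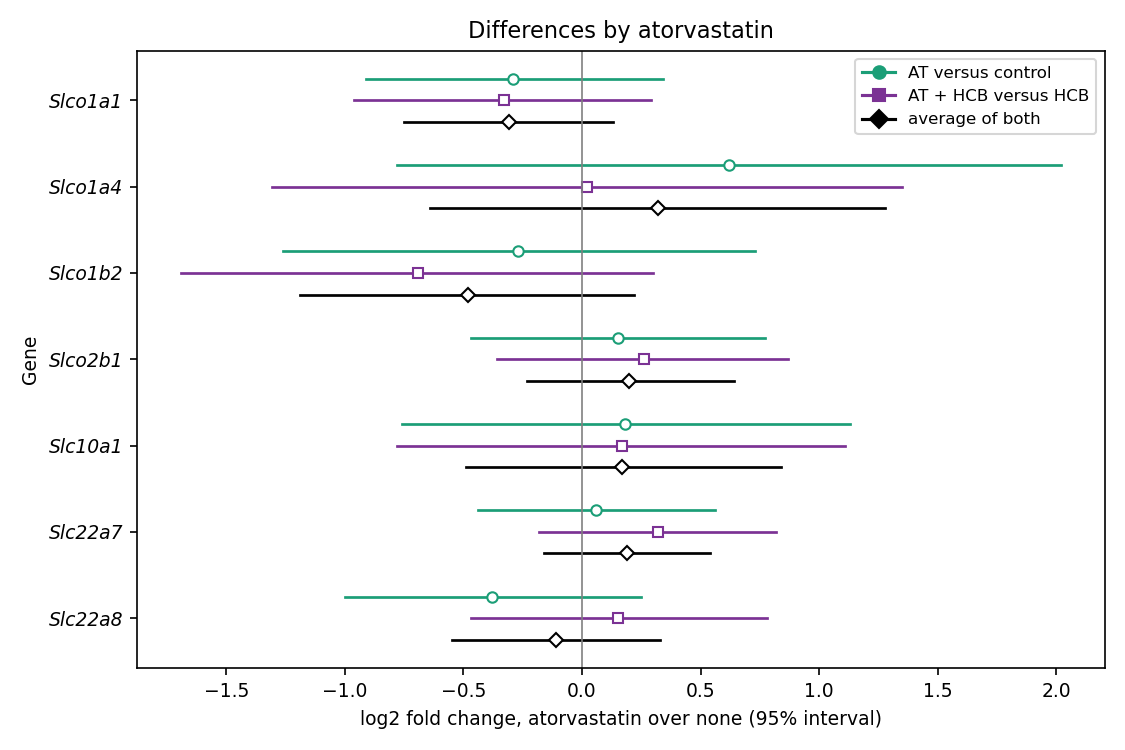
Log2 fold change of each carrier by atorvastatin with 95% intervals on the x axis and genes down the page, for AT versus Control (circles), AT + HCB versus HCB (squares) and their average (diamonds); all symbols are open because none passed the threshold. Every interval spans 0, from Slco1b2 at -0.48 to Slco1a4 at 0.32 in the average.

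Other uptake carriers were read from a list of 28 genes of the SLCO, SLC22 and SLC10 families, of which 23 were tested. In the averaged HCB contrast 9 were called higher and 4 lower, where 21.3% and 25.3% of all genes were, and their median log2 difference was 0.16. With libraries scaled to the hepatocyte genes, 4 were called higher and 7 lower, where 5.99% and 40.7% of all genes were. The intestinal and cholangiocyte bile acid carrier Slc10a2 had 10.9 and 7.62 CPM in AT + HCB livers, 11.3 and 7.90 CPM in HCB livers, 0.575 and 0.581 CPM in AT livers, and 0.660 and 0.474 CPM in Control livers. It rose by 4.04 ± 0.27 (edgeR adjusted p = 1.6e-06). The 5 cholangiocyte genes summed to 12.6 to 20.5 CPM in the HCB-labelled libraries and 11.7 to 19.2 CPM in the others. Of these 5, 2 were called higher and 2 lower, and the part of cholangiocytes in the Slc10a2 result was not tested. Slc22a18 rose by 1.43 ± 0.21 (edgeR adjusted p = 0.000317). Slco5a1 rose by 4.93 ± 0.43 (edgeR adjusted p = 8.53e-06) at low levels, with 2.81 to 4.27 CPM in the HCB-labelled libraries and 0.0474 to 0.208 CPM in the others. The carnitine carrier Slc22a5 and the kidney anion transporter Slc22a6 had 0.43 ± 0.19 and 0.16 ± 0.44 (edgeR adjusted p = 0.0849 and 0.777).

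The export pumps that pass on what the carriers take up moved in both directions, with 6 of 14 tested genes called higher and 4 lower in the averaged HCB contrast, where 21.3% and 25.3% of all genes were. Under hepatocyte list scaling 4 were called higher and 4 lower, where 5.99% and 40.7% of all genes were. Abcc2, the canalicular pump for conjugated anions, had 1000 to 1550 CPM in the HCB-labelled libraries and 186 to 270 CPM in the others, a rise of 2.44 ± 0.25 (edgeR adjusted p = 3e-05). Abcc3, the basolateral pump that returns conjugates to blood, fell by 3.14 ± 0.33 (edgeR adjusted p = 3.42e-05), with 5.51 to 17.4 CPM against 80.8 to 125 CPM. Abcg2 fell by 1.59 ± 0.22 (edgeR adjusted p = 0.000192), and the phospholipid floppase Abcb4 by 0.78 ± 0.19 (edgeR adjusted p = 0.00668). Abcb1b, a multidrug pump, rose by 2.08 ± 0.39 (edgeR adjusted p = 0.00146). It also had the smallest unadjusted p of this list in the averaged atorvastatin contrast, 0.00166 with a log2 difference of 1.59, which did not pass adjustment (edgeR adjusted p = 0.99).

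In the averaged HCB contrast, bile acid synthesis and conjugation genes were called higher in 11 of 14 cases and lower in 0, against 21.3% and 25.3% of all genes, and their median log2 difference was 1.32, against -0.11 for all genes. Under hepatocyte list scaling 7 were called higher and 2 lower, against 5.99% and 40.7% of all genes. Cyp7a1, which starts the classical pathway from cholesterol to bile acids, had 340 to 1390 CPM in the HCB-labelled libraries and 6.83 to 40.0 CPM in the others (5.15 ± 0.60, edgeR adjusted p = 0.000175). Hsd3b7, a later step of the pathway, rose by 2.74 ± 0.23 (edgeR adjusted p = 6.03e-06). The conjugating enzymes Slc27a5, which couples bile acids to coenzyme A, and Baat, which adds glycine or taurine, rose by 2.34 ± 0.24 and 2.19 ± 0.29 (edgeR adjusted p = 3.05e-05 and 0.000144). The cytochromes Cyp3a9, Cyp3a18 and Cyp3a62, of the subfamily that oxidises atorvastatin, rose by 8.02 ± 0.40, 4.42 ± 0.31 and 4.69 ± 0.38 (edgeR adjusted p = 1.86e-07, 1.89e-06 and 6.09e-06). Cyp3a2 and Cyp3a23-3a1 of this subfamily rose less, by 1.23 ± 0.28 and 0.70 ± 0.25 (edgeR adjusted p = 0.00458 and 0.0421). Under hepatocyte list scaling Cyp3a23-3a1 had 0.08 (edgeR adjusted p = 0.825). Of 8 tested genes for the target and metabolism of atorvastatin, 8 were called higher, against 21.3% of all genes. Under hepatocyte list scaling 6 were, against 5.99%. Pon1, a lactonase, rose by 2.86 ± 0.27 (edgeR adjusted p = 1.75e-05).

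Of 24 regulators of carrier genes, 10 were called higher and 2 lower in the averaged HCB contrast, against 21.3% and 25.3% of all genes, so the 12 calls in either direction were near the 46.6% called among all genes. Under hepatocyte list scaling 1 was called higher and 6 lower, against 5.99% and 40.7% of all genes. The growth hormone receptor gene Ghr averaged 653 ± 32.1 CPM in AT + HCB livers, 760 ± 167 CPM in HCB livers, 139 ± 17 CPM in AT livers and 128 ± 23.9 CPM in Control livers (SD, n = 2 each), a rise of 2.40 ± 0.22 (edgeR adjusted p = 1.23e-05). The oxidative stress factor Nfe2l2 rose by 1.22 ± 0.17 (edgeR adjusted p = 0.000209), Cebpb by 1.21 ± 0.18 (0.000409) and Stat5a by 0.91 ± 0.22 (0.00664), whereas Stat5b had -0.17 ± 0.19 (0.474). The fatty acid receptor gene Ppara fell by 1.19 ± 0.17 (edgeR adjusted p = 0.000297). Among genes singled out after their values were seen, Hnf4a rose by 0.94 ± 0.22 (edgeR adjusted p = 0.00497) and the bile acid receptor gene Nr1h4 had 0.44 ± 0.19 (0.0858). Nfe2l2, Cebpb, Stat5a and Hnf4a were not called under hepatocyte list scaling, at 0.56, 0.49, 0.24 and 0.25 (edgeR adjusted p = 0.112, 0.225, 0.609 and 0.45). Of 5 scaffold genes that hold carriers at the membrane, Nherf1 rose by 1.25 ± 0.24 (edgeR adjusted p = 0.00159), which was not called under that scaling (0.64, edgeR adjusted p = 0.0725). Ezr and Msn fell by 1.09 ± 0.26 and 0.60 ± 0.18 (edgeR adjusted p = 0.00575 and 0.0177), Rdx had 0.22 ± 0.17 (0.323) and Pdzk1 -0.10 ± 0.16 (0.621). In the atorvastatin comparisons, 0 genes of these lists were called.

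Lists of other cell types that liver tissue can hold gave the background for these counts. In the averaged HCB contrast, of the tested genes all 8 fetal liver, all 8 erythroid and all 6 neutrophil genes were called lower, with medians of -5.86, -4.56 and -7.24; the untested neutrophil gene Ltf was at 0 in every library. Kupffer cell genes were called higher in 2 and lower in 1 of 6, sinusoidal endothelial genes in 3 and 2 of 7, and cholangiocyte genes in 2 and 2 of 5, where 21.3% and 25.3% of all genes were. None of the 7 kidney tubule genes was called, and of 4 choroid plexus and brain endothelial genes 1 was called higher and 1 lower. Of the 5 tested Y-linked genes, 4 were called higher, with a median of 6.31, and of the 14 hepatocyte secreted protein genes 5 were called higher and 2 lower. Under hepatocyte list scaling, Kupffer cell genes were called higher in 2 and lower in 2 cases, sinusoidal endothelial genes in 1 and 4, and cholangiocyte genes in 0 and 2. Of all genes, 5.99% and 40.7% were called higher and lower there. The part of these differences in the results on the carriers was not tested.

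The genes whose pattern over the 8 libraries was closest to each carrier were found among 12433 named genes by the root mean square difference of centred log2 CPM. For Slco2b1 they were Pm20d1 (0.03) and Prkaa2 (0.12), and for Slc22a7 Lman2 and Mmaa (0.08 each). Slc10a1 was closest to Ebp (0.10) and Lcat (0.13), Slco1a1 to Hspb8 (0.12) and Pgrmc1 (0.15), and Slc22a8 to Cant1 (0.12) and Tspyl1 (0.13). Slco1b2 was closest to Cd59 and Ttpa (0.18 each), and Slco1a4, with the largest distances, to Ces2c (0.33) and Gstm2 (0.40). Between the carriers, the closest pairs were Slco1a1 with Slco1b2 and Slc22a7 with Slc22a8 (0.28 each), and the farthest was Slco1a4 with Slc22a8 (2.39).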

How the data were processed

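Total RNA of rat liver was sequenced as 150 bp read pairs by a service laboratory, per the labels' protocols. According to the submitters' processing notes, reads went through fastp 0.23.4, STAR 2.7.10b, featureCounts, R 4.3.2 and DESeq2 1.42.1, on the build mRatBN7.2, and per the file headers featureCounts 2.0.6 counted reads over exons of Ensembl release 111 with no strand option. The deposited values are raw counts per gene; all read classes sum to 507.5 M reads, 2.04 times the 249.2 M stated, so mates appear to have been counted singly. Of the 30562 genes, 4367 had no symbol.

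From these counts, edgeR 4.0.16 (R 4.3.3) fitted 1 quasi-likelihood model of 4 groups with trimmed-mean scaling, its default filter and robust estimation (4 residual degrees of freedom, common biological coefficient of variation 0.295), adjusted by Benjamini-Hochberg over 16591 genes at 0.05. Standard errors are the log2 change over the root of F. DESeq2 1.42.0, other scalings and filters, and leaving out each of the 2 libraries per group were alternatives, and scripts were tested on simulated data. Each group has 2 separate animals. The edgeR p-values rest on the spread between animals, pooled over the 4 groups and moderated with information from the other genes. Tests and intervals add the degrees of freedom borrowed in this way to the 4 residual ones, so they do not rest on the animals of a group alone. Promoters came from RefSeq (GRCr8), with Biopython 1.88 alignments. Named genes were the 7 carriers, up to 4 genes per list with the smallest p by HCB and up to 2 by atorvastatin, and the 2 closest patterns per carrier. The carriers and the 16 lists were chosen with earlier results of these data known; a few genes of these lists are not reported here.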

Additional observations from a re-analysis of the deposited data

How the results depend on the processing

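Across all alternatives, 838 carrier values neither turned direction nor changed side of the threshold, 35 that were not called turned direction (34 in the atorvastatin comparisons and interaction, 1 by HCB label), 30 lost the call, 6 gained it, and 1 called value turned: Slc22a8 in the averaged HCB contrast was -0.05 under hepatocyte list scaling (edgeR adjusted p = 0.889). That scaling kept 4 carriers called in each HCB comparison. With the AT and Control libraries richest in reads outside exons left out, 3 carriers were called in AT + HCB over AT livers, and genes called numbered 2108 (HCB over Control; 4466 with all libraries), 2147 (AT + HCB over AT; 4571) and 4643 (average; 7728). A rule chosen after seeing the data, the deposited one of DESeq2 with an adjusted p under 0.05 and a log2 change over 2 without shrinkage, called 3 carriers in HCB over Control livers and 3 in the average, with 1815, 2175 and 2404 genes, and 1, 18, 1 and 5 genes for AT over Control, AT + HCB over HCB, average atorvastatin and interaction. For those 4, DESeq2 called 3, 47, 12 and 5 genes and no filter 76, 179, 140 and 70; hepatocyte list scaling called 2 in each of the first 3. Without single libraries, the carriers called ranged from 4 to 5 (HCB over Control), 4 to 6 (AT + HCB over AT), 5 to 7 (average) and 0 to 0 for atorvastatin and interaction. The genes called ranged from 2164 to 4622, 1902 to 4819 and 5813 to 7464 for HCB, with the lowest without the first Control library (2164), the first AT + HCB library (1902) and the first Control library (5813); the first HCB library left 2595, the second AT + HCB library 2504 and the first AT library 2629. For atorvastatin and the interaction they ranged from 0 to 33, 0 to 6, 0 to 9 and 0 to 5, with 33, 9 and 5 without the first AT library. The causes of these changes were not tested. Leaving out a library lowers the number of animals and also changes which animals remain.

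Replicate numbers are shared between groups but mark separate animals, and deviations of same-numbered libraries correlated across genes at 0.27 between AT and Control and -0.05 to 0.05 elsewhere. With the replicate block, 4282, 4398 and 7548 genes were called; Slc22a8 in AT + HCB over AT livers was not called (0.86, edgeR adjusted p = 0.0575), and Slc10a1 was called in the average (0.89, edgeR adjusted p = 0.0246). With 2 animals per group, what can be detected is limited. Halving and rounding the counts changed no call of a carrier, but it adds no sampling noise, so it cannot show whether read depth was limiting.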
